A study of Mus musculus with 16 samples.

Results

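The aquaporins are a family of membrane channels for water and, in some members, glycerol and other small solutes. The counts of 8 mouse aquaporin genes, Aqp1, Aqp2, Aqp3, Aqp4, Aqp5, Aqp6, Aqp8 and Aqp11, were examined in 16 RNA-seq libraries. The genes were taken by symbol from 55367 gene rows. Of the 8 genes, 3 (Aqp4, Aqp6 and Aqp8) were near zero, with at most 10 counts in every library. The other 5 passed edgeR's filter on low counts and were tested, among 19509 genes in all.

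In the collecting duct of the kidney, vasopressin acts through its receptor Avpr2 and cAMP to move the AQP2 channel into the apical membrane of principal cells and to raise Aqp2 transcription. Water then leaves the cell through AQP3 and AQP4 in the basolateral membrane. AQP1 is best known from the proximal tubule, the thin descending limb and the vasa recta, AQP5 from salivary, lacrimal and airway glands, AQP6 from vesicles of intercalated cells, and AQP8 and AQP11 from internal membranes. The inner medulla where these cells normally lie is hyperosmotic, and NFAT5 is the transcription factor best known for the response to such conditions.

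The cells were mIMCD3, an immortal epithelial line derived from inner medullary collecting duct of the mouse, and were either wild type (WT) or lacked Nrf2 (Nrf2-/-), the transcription factor encoded by Nfe2l2. WT cells received the solvent DMSO or 10 µM sulforaphane (SFN), an activator of Nrf2, for 5 h, and were then sampled in isosmotic medium or after 1 h or 6 h in hyperosmotic medium of 600 mOsm. Nrf2-/- cells were sampled only after SFN, in isosmotic medium and after 1 h of hyperosmotic medium. The design thus had 8 groups of 2 libraries, with no Nrf2-/- DMSO group and no Nrf2-/- group at 6 h. Nrf2 was disrupted with CRISPR/Cas9 delivered by lentivirus and drug selection. Whether the line was 1 clone is not given in the sources used here, so the loss of Nrf2 and other differences between the lines cannot be told apart. The study's methods call the libraries of a group biological replicates without saying whether they were separate cultures. P-values measure only the spread between libraries within groups, with 1 estimate per gene shared by all 8 groups.

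Libraries held 34484296 to 50774875 counts. The number of genes with any count was 20312 to 21797 in the 6 isosmotic libraries, 22583 to 24242 in the 6 libraries at 1 h and 24274 to 25115 in the 4 libraries at 6 h. More genes thus had counts under hyperosmotic medium, and the part this had in the low aquaporin counts was not tested. The 2 libraries of Nrf2-/- SFN 1 h differed most, with a biological coefficient of variation of 0.348 against 0.0393 to 0.128 in the other groups. This pair entered the shared estimate of spread for every comparison. Of the counts between 1 and 10, 58.0% to 68.5% were even numbers, and a count of 2 may stand for 1 fragment. The lower bounds and the exact counting intervals given below take each count as 1 fragment. Where counts come in pairs, the bounds would be lower and the intervals wider. Nfe2l2, the targeted gene, lay at 11.0 to 11.6 CPM (counts per 1000000 counts of the library, after TMM normalization) in the 4 Nrf2-/- libraries and at 64.0 to 149 CPM in the 12 WT libraries. Nqo1, a classic Nrf2 target, had 0 counts in both Nrf2-/- SFN isosmotic libraries and 9 and 4 in Nrf2-/- SFN 1 h, against 60 to 398 in WT.

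The labelled cell type was checked against its markers. All 9 epithelial markers, among them Epcam, Cdh1 and Pax8, had a mean of at least 10 CPM. Of 14 principal cell markers, 4 (Scnn1a, Fxyd4, Gata3 and Cdh16) had a mean of at least 1 CPM. The vasopressin receptor Avpr2, the sodium channel subunit Scnn1g, Elf5, the potassium channel Kcnj1, the urea transporter Slc14a2 and Aqp4 had at most 10 counts in every library, so several defining markers of principal cells were nearly absent. The summed level of the 14 markers was 170 to 484 CPM in WT and 17.4 to 30.4 CPM in Nrf2-/- libraries, and nearly all of it was Cdh16, a cadherin of kidney tubules, at 165 to 463 and 14.1 to 25.5 CPM. The other 13 summed to 5.15 to 25.9 CPM in WT and 1.75 to 4.87 CPM in Nrf2-/- libraries. Markers of other cell types that carry aquaporins were low beside the 9 epithelial markers, which summed to 2290 to 5220 CPM. In WT libraries, those of proximal tubule and intercalated cells reached levels like those of the 13 principal cell markers other than Cdh16. The proximal tubule is a segment rich in AQP1. Its 8 markers summed to 9.06 to 27.7 CPM in WT and 2.5 to 5.74 CPM in Nrf2-/- libraries. Among them, Lrp2 and Cubn had a mean of at least 1 CPM. The part of these markers in the Aqp1 levels was not tested. The 5 endothelial markers summed to 0.0476 to 5.79 CPM over all libraries. The 5 red blood cell markers summed to 0.376 CPM at most. Intercalated cell markers summed to 1.96 to 21.0 CPM in WT and 0.0569 to 1.36 CPM in Nrf2-/- libraries, with Atp6v0d2 at 0 in every library.

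Aqp2, Aqp5 and Aqp6 lie in a row on the same strand of chromosome 15. On GRCm38, the assembly also called mm10, Aqp2 spans chr15:99579055-99584547, Aqp5 chr15:99590782-99594829 and Aqp6 chr15:99601400-99605477, with gaps of 6234 and 6570 bp. Aqp1 spans chr6:55336432-55348555 on the plus strand and Aqp3 chr4:41092722-41098183 on the minus strand. Aqp8, at chr7:123462291-123468004 on the plus strand, and Aqp11, at chr7:97724006-97738289 on the minus strand, share a chromosome. No other gene of the count files overlapped any of the 8.

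The promoter of Aqp1 is shown because this gene had the highest levels, and those of Aqp2 and Aqp3 because these are the classic channels of the collecting duct and were highest at different times, 6 h and 1 h. Each run is the 250 bases before the RefSeq start on GRCm38.p6, from 5′ to 3′ on the gene's own strand, at chr6:55336049-55336298 (plus), chr15:99578806-99579055 (plus) and chr4:41098184-41098433 (minus). Capitals mark the cAMP response core TGACG, read here on the opposite strand as CGTCA.
Aqp1: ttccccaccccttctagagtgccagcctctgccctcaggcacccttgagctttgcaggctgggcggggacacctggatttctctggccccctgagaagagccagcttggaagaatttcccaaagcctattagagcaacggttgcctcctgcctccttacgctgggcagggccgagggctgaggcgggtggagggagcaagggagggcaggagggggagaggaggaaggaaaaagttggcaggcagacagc
Aqp2: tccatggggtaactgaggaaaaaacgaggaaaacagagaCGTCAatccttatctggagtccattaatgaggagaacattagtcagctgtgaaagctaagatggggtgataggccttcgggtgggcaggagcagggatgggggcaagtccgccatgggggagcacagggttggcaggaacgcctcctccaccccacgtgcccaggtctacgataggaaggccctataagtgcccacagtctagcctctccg
Aqp3: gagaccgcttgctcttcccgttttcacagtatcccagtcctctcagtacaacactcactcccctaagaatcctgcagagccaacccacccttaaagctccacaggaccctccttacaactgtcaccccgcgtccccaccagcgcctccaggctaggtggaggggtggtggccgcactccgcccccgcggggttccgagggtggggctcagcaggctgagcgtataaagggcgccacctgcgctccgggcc
Such windows of 7 of the 8 genes, without Aqp4, were searched on both strands for 3 cores. The NFAT5 core TGGAAA was in 0 of 7 windows, against 18.6% of 32851 RefSeq windows of the same length. The antioxidant response core TGACNNNGC, to which Nrf2 binds, was in 0 of 7, against 10.2%. The cAMP response core was in 1 of 7, starting 211 bases before the start of Aqp2, against 17.8%. These counts describe the letters of short windows only. The RefSeq starts differed in part from the gene spans given above. The Aqp5 window, chr15:99590778-99591027, lay almost wholly inside the span of Aqp5. Those of Aqp1 and Aqp6 ended some way before their spans, at 55336298 and 99601199.

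The number of aquaporin genes called was set beside the share of all tested genes called in the same comparison. For SFN against DMSO in WT cells, 0 of the 5 tested aquaporins were called in isosmotic medium, at 1 h and at 6 h, where 2.84%, 0.0923% and 0.041% of all genes were called, and 0 had an unadjusted p under 0.05. These shares depended on which libraries were fitted together. In the fit of all 16 libraries, 555, 18 and 8 of 19509 genes were called. With only the 12 WT libraries the numbers were 2875, 101 and 46 of 18959, and still no aquaporin was called. The shares of all WT comparisons were higher in that fit. At 1 h against isosmotic medium, 0 were called in WT DMSO, WT SFN and Nrf2-/- SFN cells, where 11.2%, 9.52% and 7.17% of all genes were called, and Aqp3 alone had an unadjusted p under 0.05. At 6 h against isosmotic medium, 2 were called with DMSO (Aqp1 and Aqp5) and 3 with SFN (Aqp1, Aqp2 and Aqp5), at backgrounds of 45.9% and 47.6%. At 6 h against 1 h, 2 were called with DMSO (Aqp1 and Aqp5) and 4 with SFN (Aqp1, Aqp2 and Aqp5 higher, Aqp3 lower), at 42.4% and 42.6%. For Nrf2-/- against WT, Aqp1 and Aqp5 were called both in isosmotic medium and at 1 h, at 34.1% and 31.5%. The interactions of SFN with 1 h and with 6 h and of genotype with 1 h called 0 aquaporins, at 0.559%, 0.759% and 0.123%, with adjusted p from 0.715 to 1.0, so no difference between pretreatments or genotypes in the response to hyperosmotic medium passed the test. With only the 12 WT libraries, the 2 interactions of SFN called 585 and 803 genes, against 109 and 148, and again no aquaporin. Aqp2 and Aqp3 passed the filter on low counts only through WT SFN 6 h and through the 3 groups at 1 h, so their calls here were fixed in part by that filter and do not bear on the count against the background. The comparisons of 1 h and of 6 h with isosmotic medium share the isosmotic libraries, and with 5 genes a share near these backgrounds is no result about the family. In bulk RNA, fewer cells that carry a transcript and less of it per cell cannot be told apart.

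Aqp1 had the highest mean level of the 8 genes per kilobase in all 8 groups, and it lay low in every WT group except those at 6 h. Its counts in replicates 1 and 2 were 34 and 47 in WT DMSO isosmotic, 47 and 78 in WT SFN isosmotic, 60 and 50 in WT DMSO 1 h, and 62 and 33 in WT SFN 1 h. At 6 h the WT DMSO libraries had 450 and 570 and the WT SFN libraries 431 and 499. In Nrf2-/- cells the counts were 267 and 199 in isosmotic medium and 271 and 195 at 1 h. All 4 libraries at 6 h lay above all other libraries, and all 4 Nrf2-/- libraries lay between these and the other WT libraries, with no overlap. As levels, the order was WT DMSO 6 h (15.3 ± 3.23 CPM, SD, n = 2), WT SFN 6 h (14.1 ± 2.04), Nrf2-/- SFN 1 h (6.65 ± 1.45), Nrf2-/- SFN isosmotic (6.47 ± 1.59), and then the 4 other WT groups, from 1.35 ± 0.131 down to 0.925 ± 0.162 CPM. Neighbours in this order overlapped except between WT SFN 6 h and Nrf2-/- SFN 1 h, and between Nrf2-/- SFN isosmotic and WT SFN isosmotic.

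The 6 h comparisons asked how the genes stood after longer hyperosmotic stress, and Aqp1 rose in all 4 of them. In WT DMSO cells Aqp1 rose 16.5-fold over isosmotic medium (log2 fold change 4.04, SE 0.32, edgeR adjusted p = 1.9e-07) and 11.4-fold over 1 h (3.51, SE 0.31, adjusted p = 4.81e-07). In WT SFN cells it rose 10.4-fold over isosmotic medium (3.37, SE 0.30, adjusted p = 6.07e-07) and 11.6-fold over 1 h (3.53, SE 0.31, adjusted p = 5.15e-07). At 1 h Aqp1 did not pass the test, with log2 fold changes of 0.53 (95% interval -0.18 to 1.25) with DMSO and -0.16 (-0.85 to 0.54) with SFN. SFN itself made no called difference to Aqp1. The log2 differences from DMSO were 0.55 (-0.16 to 1.26) in isosmotic medium, -0.14 (-0.84 to 0.56) at 1 h and -0.12 (-0.68 to 0.44) at 6 h. The interaction of SFN and 6 h, which tests whether the rise differed between pretreatments, was -0.67 on the log2 scale (95% interval -1.57 to 0.23, adjusted p = 0.715).

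In Nrf2-/- cells Aqp1 was 4.75-fold higher than in WT cells in SFN-treated isosmotic libraries (log2 fold change 2.25, SE 0.30, adjusted p = 3.57e-05) and 5.45-fold higher at 1 h (2.45, SE 0.31, adjusted p = 2.28e-05). Within Nrf2-/- cells, 1 h of hyperosmotic medium gave a log2 difference of 0.0405 (-0.54 to 0.62). The nearest gene before Aqp1, Mindy4, lies 16209 bp away on the same strand. Its mean level lay lower at 6 h, at 1.7 CPM against 7.25 in isosmotic medium with DMSO and at 1.26 against 5.28 CPM with SFN. The nearest gene after it, Ghrhr, was at most at 0.0888 CPM in any group.

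**Figure D1:**
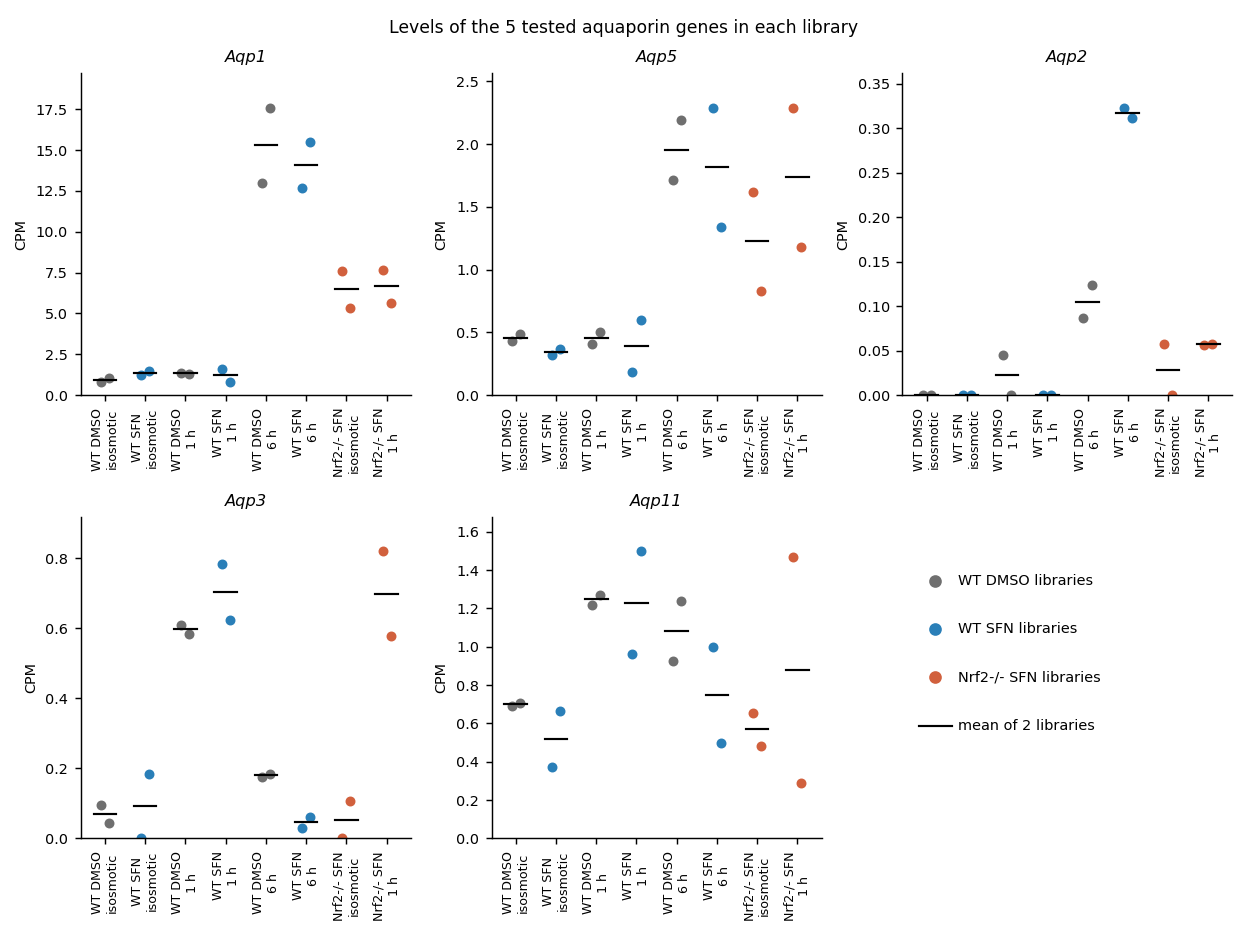
Level in CPM (vertical axes, linear, each from 0 and on its own scale) of the 5 tested aquaporin genes in the 8 groups, with 1 point per library and a black line at the mean of 2 libraries. Aqp1 reaches 12.7 to 17.6 CPM in the 6 h libraries and 5.35 to 7.67 CPM in the Nrf2-/- libraries, Aqp3 is highest in the 3 groups at 1 h, and Aqp2 reaches 0.323 CPM at most.

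Aqp5, the gland water channel, differed between the same groups as Aqp1, at lower counts and smaller size. Its counts were 18 and 22 in WT DMSO isosmotic, 12 and 20 in WT SFN isosmotic, 18 and 19 in WT DMSO 1 h, and 7 and 24 in WT SFN 1 h. They were 59 and 71 in WT DMSO 6 h and 78 and 43 in WT SFN 6 h. Nrf2-/- libraries had 57 and 31 in isosmotic medium and 81 and 41 at 1 h. The 8 libraries at 6 h or without Nrf2 lay at 0.833 to 2.29 CPM and the other 8 at 0.183 to 0.6 CPM, without overlap. Among the 4 higher groups, which ran from 1.95 ± 0.341 CPM in WT DMSO 6 h to 1.23 ± 0.558 CPM in Nrf2-/- SFN isosmotic, each overlapped its neighbour, as did each of the 4 lower groups.

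At 6 h Aqp5 rose 4.23-fold over isosmotic medium with DMSO (log2 fold change 2.08, SE 0.53, adjusted p = 0.00489) and 5.18-fold with SFN (2.37, SE 0.54, adjusted p = 0.00236). Against 1 h it was 4.27-fold higher with DMSO (2.09, SE 0.53, adjusted p = 0.00533) and 4.59-fold higher with SFN (2.20, SE 0.54, adjusted p = 0.00438). The call against 1 h was lost without WT DMSO 1 h replicate 1 (adjusted p = 0.0518) and, with SFN, without WT SFN 1 h replicate 1 (0.0565) or WT SFN 6 h replicate 1 (0.051). With SFN the log2 fold change was 1.59 without WT SFN 1 h replicate 1 and 3.29 without replicate 2. Nrf2-/- cells had 3.49-fold more Aqp5 than WT cells in isosmotic medium (1.80, SE 0.55, adjusted p = 0.0191) and 4.4-fold more at 1 h (2.14, SE 0.54, adjusted p = 0.00746). The first of these was lost without Nrf2-/- SFN isosmotic replicate 1 (adjusted p = 0.178) or either WT SFN isosmotic library (0.0993 and 0.0746), and the second without WT SFN 1 h replicate 1 (log2 fold change 1.53, adjusted p = 0.087, against 3.23 without replicate 2) or in a fit of only the libraries compared (0.126). At 1 h the log2 differences from isosmotic medium were -0.0129 (-1.22 to 1.19) with DMSO, 0.17 (-1.08 to 1.43) with SFN and 0.50 (-0.55 to 1.56) in Nrf2-/- cells, and none passed the test. SFN against DMSO gave -0.39 (-1.62 to 0.83) in isosmotic medium, -0.21 (-1.45 to 1.03) at 1 h and -0.10 (-1.14 to 0.94) at 6 h.

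Aqp2, the vasopressin-regulated channel that defines principal cells, was close to zero in this line. It had 0 counts in both libraries of WT DMSO isosmotic, WT SFN isosmotic and WT SFN 1 h, and 2 and 0 in WT DMSO 1 h. It had 2 and 0 in Nrf2-/- SFN isosmotic and 2 and 2 in Nrf2-/- SFN 1 h. At 6 h the DMSO libraries had 3 and 4 and the SFN libraries 11 and 10, or 0.105 ± 0.0259 and 0.317 ± 0.00817 CPM. The 2 WT SFN 6 h libraries lay above all others, and the 2 WT DMSO 6 h libraries lay above the remaining 12. Aqp2 passed the filter on low counts through WT SFN 6 h alone, so by passing it had to differ between that group and the rest.

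With a floor of 3 counts per library for a count of 0, Aqp2 in WT SFN 6 h was at least 4.66-fold higher than in isosmotic medium (adjusted p = 0.0108) and at least 4.14-fold higher than at 1 h (adjusted p = 0.0144), by edgeR. The bounds take each count as 1 fragment and would be lower if counts came in pairs. Without WT SFN isosmotic replicate 2 the adjusted p of the first was 0.0619, and without WT SFN 1 h replicate 1 or 2 that of the second was 0.0669 or 0.0698. Without a filter on low counts, the call of WT SFN 6 h against 1 h was also lost (edgeR adjusted p = 0.0503). With DMSO the value at 6 h was at least 1.53-fold that in isosmotic medium and did not pass the test (adjusted p = 0.0576). At 6 h, SFN against DMSO gave a log2 difference of 1.57 (95% interval -1.0 to 4.13, adjusted p = 1.0). The difference between the pretreatments thus did not pass the test, and the reason was not tested.

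Aqp3, the basolateral channel for water and glycerol, was highest at 1 h in WT DMSO and WT SFN cells. In Nrf2-/- SFN cells, which had no group at 6 h, Aqp3 was higher at 1 h than in isosmotic medium. Its counts at 1 h were 27 and 22 in WT DMSO, 30 and 25 in WT SFN, and 29 and 20 in Nrf2-/- SFN. In isosmotic medium the same cells had 4 and 2, 0 and 10, and 0 and 4 counts. At 6 h the WT DMSO libraries had 6 and 6 counts and the WT SFN libraries 1 and 2. The 6 libraries at 1 h lay at 0.577 to 0.821 CPM and the other 10 at 0.185 CPM or lower, with no overlap. Aqp3 passed the filter on low counts only through the 3 groups at 1 h, so by passing it had to differ between these and the rest. Its nearest neighbour on the 5′ side, Nol6, lies 16243 bp away on the same strand and was at 106 CPM in WT DMSO isosmotic and 112 CPM in WT DMSO 1 h.

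The difference of Aqp3 between 1 h and isosmotic medium stood at the edge of the test. Against isosmotic medium its log2 fold change was 3.05 (SE 1.01, adjusted p = 0.0674) with DMSO, 2.76 (SE 0.95, adjusted p = 0.0871) with SFN and 3.60 (SE 1.07, adjusted p = 0.0568) in Nrf2-/- cells. None passed in the edgeR fit of all 16 libraries, and all 3 passed with DESeq2 (adjusted p = 0.0194, 0.0307 and 0.0132) and in edgeR without a filter on low counts (0.0142, 0.0247 and 0.00555). Over all alternatives the adjusted p ran from 0.0104 to 0.337 with DMSO, from 0.0247 to 0.293 with SFN and from 0.00555 to 0.24 in Nrf2-/- cells. Leaving out single libraries brought the DMSO comparison past the threshold without either Nrf2-/- SFN isosmotic (0.0489 and 0.0497), Nrf2-/- SFN 1 h (0.034 and 0.0313) or WT SFN isosmotic library (0.0297 and 0.031). The same held for the SFN comparison without Nrf2-/- SFN 1 h replicate 2 (0.0461) or WT SFN isosmotic replicate 2 (0.0346), and for Nrf2-/- cells without either Nrf2-/- SFN 1 h (0.046 and 0.0202) or WT SFN isosmotic library (0.0245 and 0.0257). The log2 fold change with SFN was 1.91 without WT SFN isosmotic replicate 1 and 7.72 without replicate 2, that in Nrf2-/- cells was 2.67 without Nrf2-/- SFN isosmotic replicate 1 and 7.76 without replicate 2, and that with DMSO was 3.66 without WT DMSO isosmotic replicate 1. From 1 h to 6 h Aqp3 fell by 3.86 on the log2 scale with SFN (SE 1.11, adjusted p = 0.0114). The 3 counts at 6 h against 55 at 1 h gave a ratio of 15.5 with a 95% exact interval from counting error alone of 5.03 to 77.4, and the call was lost without WT SFN 6 h replicate 1 (adjusted p = 0.0885) or replicate 2 (0.0509). With DMSO the difference was -1.72 (SE 0.92, adjusted p = 0.154), and it passed in a fit of only the libraries compared (-1.69, adjusted p = 0.033). At 6 h against isosmotic medium it was 1.34 (-1.0 to 3.67) with DMSO and -1.10 (-3.77 to 1.56) with SFN. Nrf2-/- and WT cells differed by -0.00857 (-1.78 to 1.76) at 1 h and -0.85 (-3.38 to 1.68) in isosmotic medium, and SFN and DMSO by 0.53 (-1.84 to 2.90), 0.24 (-1.54 to 2.01) and -1.91 (-4.51 to 0.70) in isosmotic medium, at 1 h and at 6 h.

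Aqp11, an intracellular family member whose loss is known to cause cystic kidneys in mice, was detected in every library, with 10 to 60 counts. The counts were 29 and 32 in WT DMSO isosmotic, 14 and 36 in WT SFN isosmotic, 54 and 48 in WT DMSO 1 h, and 37 and 60 in WT SFN 1 h. They were 32 and 40 in WT DMSO 6 h, 34 and 16 in WT SFN 6 h, 23 and 18 in Nrf2-/- SFN isosmotic, and 52 and 10 in Nrf2-/- SFN 1 h. Both libraries at 1 h lay above both isosmotic libraries in WT DMSO and in WT SFN cells, but no comparison passed the test. The log2 differences at 1 h were 0.83 (-0.41 to 2.07, adjusted p = 0.435) with DMSO, 1.21 (-0.048 to 2.48, adjusted p = 0.253) with SFN and 0.63 (-0.67 to 1.94) in Nrf2-/- cells. At 6 h against isosmotic medium they were 0.62 (-0.63 to 1.88) and 0.50 (-0.81 to 1.81), and against 1 h -0.21 (-1.43 to 1.02) and -0.71 (-1.97 to 0.54), with DMSO and SFN. SFN against DMSO gave -0.40 (-1.69 to 0.89), -0.0154 (-1.22 to 1.19) and -0.52 (-1.80 to 0.75) in isosmotic medium, at 1 h and at 6 h. Nrf2-/- against WT gave 0.10 (-1.23 to 1.43) and -0.48 (-1.72 to 0.75) in isosmotic medium and at 1 h, and the latter was -2.07 (adjusted p = 0.014) without Nrf2-/- SFN 1 h replicate 1.

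**Figure D2:**
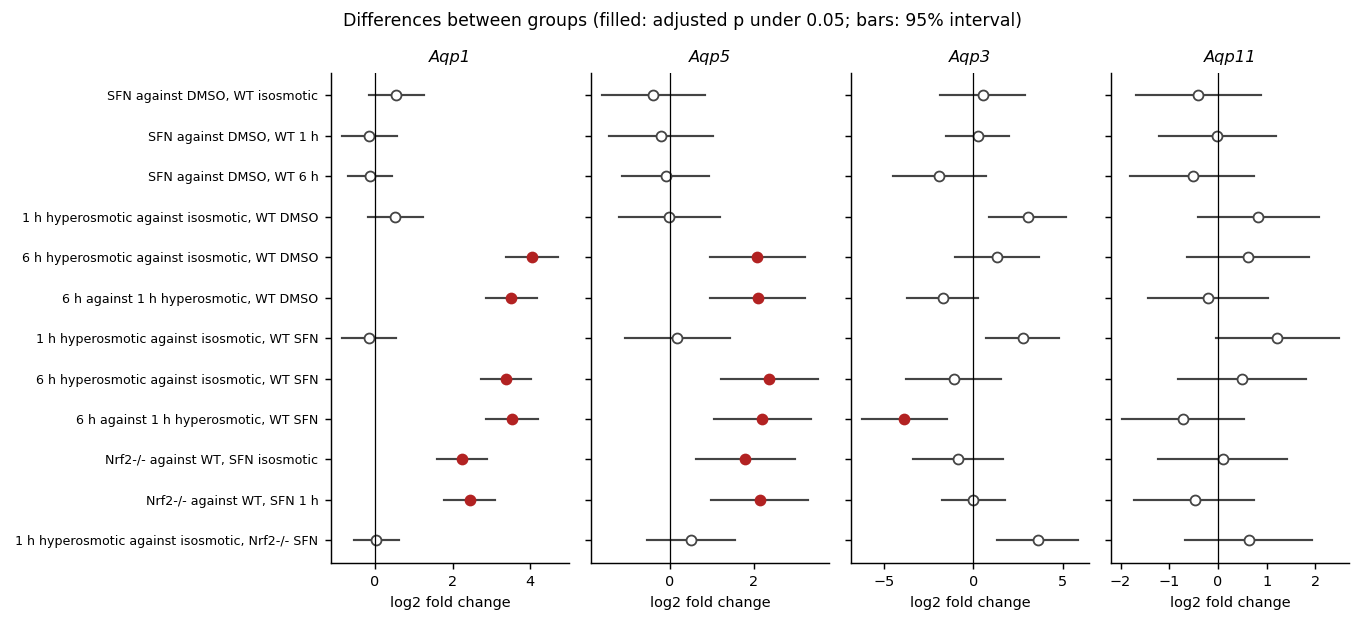
Log2 fold change (horizontal axes, linear, each on its own scale) of Aqp1, Aqp5, Aqp3 and Aqp11 in the 12 comparisons of 2 groups, first group minus second, from edgeR, with bars for the 95% interval and filled points for adjusted p under 0.05. Aqp1 and Aqp5 are called in the same 6 comparisons, Aqp3 in 1 and Aqp11 in none, and Aqp2 is left out because 3 of its groups have no count.

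Aqp4, Aqp6 and Aqp8 were near zero and were not tested. Aqp4, the second basolateral channel of principal cells, spans chr18:15389496-15410982 on the minus strand and had 2 counts in WT DMSO isosmotic replicate 2 and 0 in the other 15 libraries. Aqp6, known from intercalated cells, had 0 counts in WT DMSO isosmotic, WT SFN isosmotic and WT DMSO 1 h, 7 and 0 in WT SFN 1 h, 2 and 2 in WT DMSO 6 h, 2 and 7 in WT SFN 6 h, 2 and 10 in Nrf2-/- SFN isosmotic, and 6 and 4 in Nrf2-/- SFN 1 h. All 4 Nrf2-/- libraries and all 4 libraries at 6 h had at least 2 counts of it, against 1 of the 8 other libraries. Aqp8 had 10 and 6 counts in WT DMSO 6 h and 6 and 8 in WT SFN 6 h. In the other 12 libraries it had at most 2 counts, and 9 of them had 0. The 6 h libraries of Aqp8 thus lay above all others, at counts too low for the test. These values come from few reads, and a count of 0 in a library allows up to 3 if each count is 1 fragment.

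**Figure D3:**
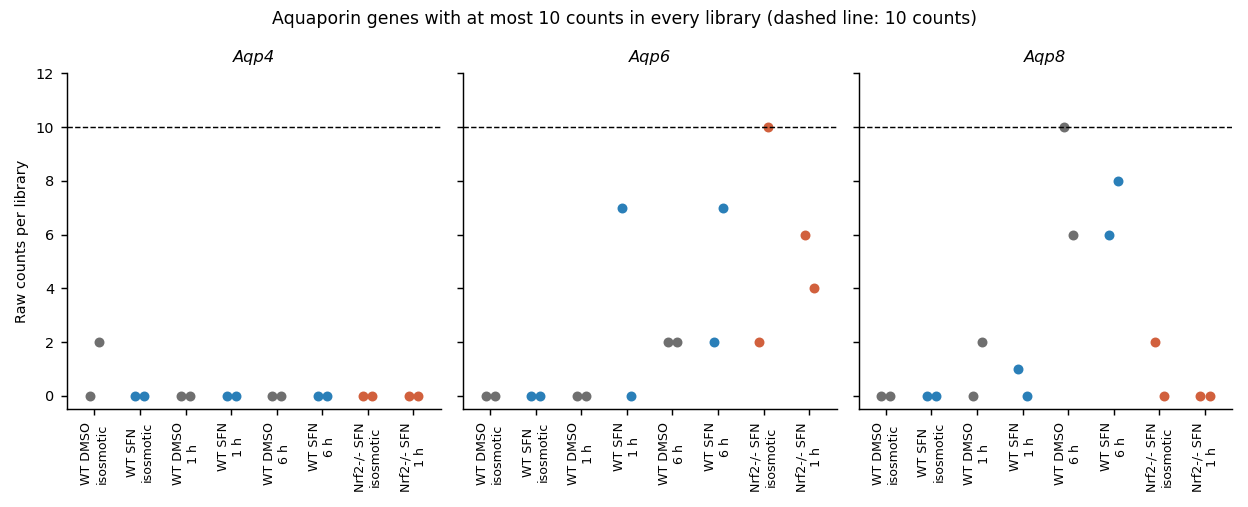
Raw counts per library (vertical axis, linear) of Aqp4, Aqp6 and Aqp8 in the 8 groups, with 1 point per library and a dashed line at 10 counts. Aqp4 has counts in 1 of 16 libraries, Aqp6 in 9 and Aqp8 in 7, and the Aqp8 counts of 6 to 10 are all at 6 h.

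Summed over the 8 genes, aquaporin transcripts came to 1.96 to 2.67 CPM in the WT isosmotic libraries and 3.55 to 3.76 CPM in WT at 1 h. They reached 16.3 to 21.6 CPM in WT at 6 h, and 7.04 to 12.5 CPM in Nrf2-/- libraries. Aqp1 made up 76.6% to 85.3% of aquaporin counts at 6 h, 23.2% to 43.1% at 1 h and 40.0% to 64.4% in isosmotic medium in WT. In Nrf2-/- libraries it made up 61.5% to 76.0%. Per kilobase of annotated exon, which allows genes to be compared, Aqp1 was also highest in WT DMSO 6 h at 5.83 CPM per kb, against 0.751 for Aqp5, 0.15 for Aqp8, 0.115 for Aqp11, 0.0982 for Aqp3 and 0.0741 for Aqp2. In WT DMSO isosmotic the order was Aqp1 (0.352 CPM per kb), Aqp5 (0.176), Aqp11 (0.0742) and Aqp3 (0.0381).

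**Figure D4:**
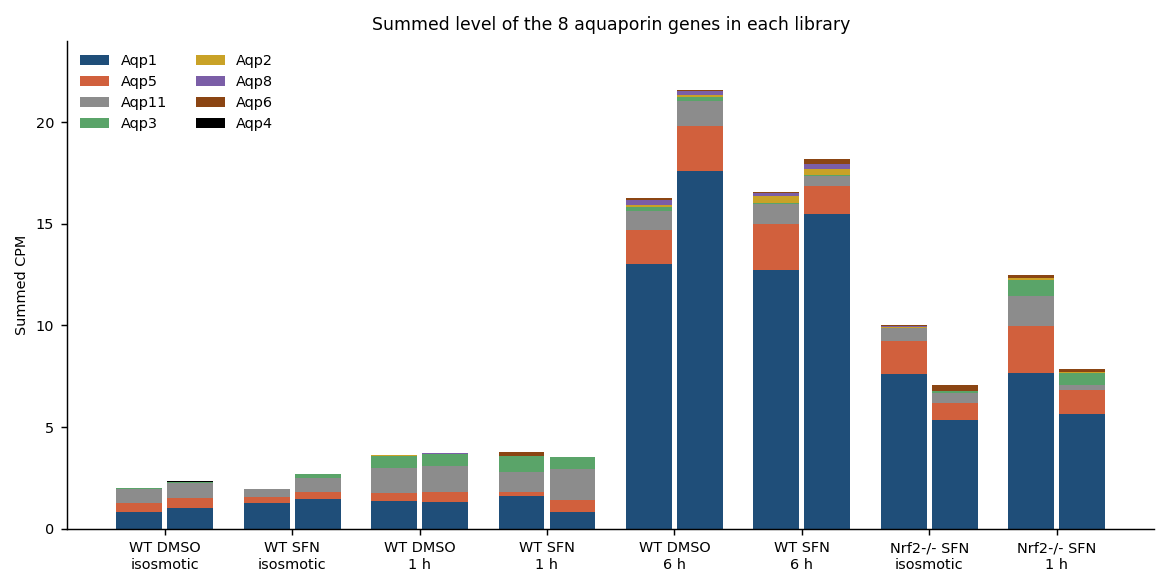
Summed level in CPM (vertical axis, linear from 0) of the 8 aquaporin genes, as 1 stacked bar per library and 2 bars per group. The sum runs from 1.96 CPM in WT SFN isosmotic to 21.6 CPM in WT DMSO 6 h, and most of the sum at 6 h is Aqp1.

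Of the 4 other family genes in the files, Aqp9 had at most 2 counts and Aqp12 had 0 in every library. Mip, the lens channel, had 0 to 20 counts and was called in no comparison. Aqp7, which like AQP3 carries glycerol as well as water, had 0 and 3 counts in WT DMSO isosmotic, 0 and 4 in WT SFN isosmotic, and 3 and 0 in Nrf2-/- SFN isosmotic. At 1 h it had 53 and 54, 41 and 72, and 39 and 99, and at 6 h 29 and 10 in WT DMSO and 11 and 13 in WT SFN. The 6 libraries at 1 h lay above all others, as for Aqp3. Aqp7 passed the filter on low counts only through the 5 hyperosmotic groups, so by passing it had to differ between these and isosmotic medium. Its rise at 1 h passed the test in WT DMSO (log2 fold change 5.14, SE 1.01, adjusted p = 0.00422), WT SFN (4.97, SE 0.97, adjusted p = 0.00452) and Nrf2-/- SFN cells (5.46, SE 1.0, adjusted p = 0.00418). The isosmotic groups held 3, 4 and 3 counts in all, and the ratios of summed counts, with 95% exact intervals from counting error alone, were 38.0 (12.6 to 187), 32.9 (12.5 to 123) and 47.6 (15.9 to 234). Leaving out isosmotic replicate 1 or 2 gave log2 fold changes of 4.24 or 8.64 in WT DMSO, 4.22 or 8.75 in WT SFN and 9.26 or 4.48 in Nrf2-/- cells, where it was 4.63 without Nrf2-/- SFN 1 h replicate 2. The Nrf2-/- call was lost in a fit of only the libraries compared (adjusted p = 0.0868) or without Nrf2-/- SFN isosmotic replicate 2 (0.0628). At 6 h Aqp7 was still above isosmotic medium by 3.95 with DMSO (SE 1.06, adjusted p = 0.00702) and by 3.0 with SFN (SE 1.06, adjusted p = 0.0308). Both rested on single libraries. The DMSO call was lost without WT DMSO 6 h replicate 1 (adjusted p = 0.0827) or WT DMSO isosmotic replicate 1 (0.0588), and the SFN call without WT SFN 6 h replicate 1 (0.0655) or 2 (0.105) or WT SFN isosmotic replicate 1 (0.141). Without isosmotic replicate 2 the log2 fold changes were 7.46 with DMSO and 6.78 with SFN.

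Genes of the vasopressin and water balance pathway, 46 in a list of receptors, cAMP enzymes, transcription factors and vesicle proteins, gave the setting of these changes. Of 45 in the files, 38 were tested. The list was chosen with earlier results of these data known, and some of its calls were fixed in part by the filter on low counts. Its shares beside those of all tested genes are thus a description and no result about the pathway. SFN against DMSO called 2 higher and 1 lower in isosmotic medium, or 7.89% of those tested against 2.84% of all tested genes. It called 0 at 1 h and at 6 h, against 0.0923% and 0.041%, where 3 and 0 had an unadjusted p under 0.05. At 1 h against isosmotic medium, 3 were higher and 2 lower with DMSO, or 13.2% against 11.2% of all tested genes. With SFN 1 was higher and 1 lower, or 5.26% against 9.52%. In Nrf2-/- cells 1 was higher and 2 lower, or 7.89% against 7.17%. At 6 h against isosmotic medium, 15 were higher and 7 lower with DMSO, or 57.9% of the list against 45.9% of all tested genes, with a median log2 fold change of 0.0983 against 0.0476 over all tested genes, also with the genes at 0 taken at their bound, and 13 were higher and 6 lower with SFN, or 19 of 38 against 47.6% (median 0.14 against 0.0855). The prostaglandin receptor Ptger3 had 0 counts in both WT DMSO isosmotic libraries and 104 and 55 at 6 h, at least 34.2-fold higher (adjusted p = 1.53e-05), and with SFN it had 0 and 3 counts and then 80 and 66 (adjusted p = 3.97e-05), a ratio of 67.1 with a 95% exact counting interval of 22.5 to 329. With SFN its log2 fold change was 5.96, 5.23 without WT SFN isosmotic replicate 1 and 9.36 without replicate 2. Ptger3 passed the filter on low counts only through hyperosmotic groups, so by passing it had to differ from isosmotic medium. Prkar2b, a regulatory subunit of protein kinase A, rose by 2.46 with DMSO (SE 0.14) and 2.03 with SFN (SE 0.14). Nfat5 rose 3.33-fold with SFN (1.74, SE 0.23, adjusted p = 3.41e-05), from 331 to 1100 CPM, and 3.24-fold with DMSO (1.70, SE 0.23, adjusted p = 4.36e-05), from 297 to 963 CPM. Pde4d, which breaks down cAMP, rose by 1.72 with DMSO (SE 0.14) and 0.89 with SFN (SE 0.13), and the cAMP-responsive factor Crem by 1.46 and 1.57 (SE 0.15 each). Adcy5, an adenylyl cyclase, rose by 2.24 with DMSO (SE 0.65, adjusted p = 0.0111), from 6 and 6 counts to 16 and 28. With SFN its log2 difference was 1.40 (SE 0.61, adjusted p = 0.0729). Adcy5 had both libraries over the filter on low counts in both groups at 6 h and in neither WT isosmotic group. Its call against WT isosmotic libraries was thus fixed in part by that filter. The 57.9% with DMSO counts both Ptger3 and Adcy5. The Adcy5 call was lost without WT DMSO 6 h replicate 2 (adjusted p = 0.0985) or WT DMSO isosmotic replicate 2 (0.0628).

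Against 1 h, 14 of the 38 were higher and 6 lower at 6 h with DMSO, and 13 higher and 5 lower with SFN, which is 52.6% and 47.4% of the list against 42.4% and 42.6% of all tested genes. Vamp2, a vesicle fusion protein, rose by 1.61 with DMSO (SE 0.14) and 1.92 with SFN (SE 0.14). In Nrf2-/- against WT cells, 10 were higher and 12 lower in isosmotic medium (median -0.0726, or -0.0371 with genes at 0 taken at their bound, against -0.000912), and 7 higher and 11 lower at 1 h, or 57.9% and 47.4% of the list against 34.1% and 31.5% of all tested genes. Both shares count Gata2, and the first also Adcy5, whose calls were fixed in part by the filter on low counts. Among the lower genes were Gata2 and Gata3, factors of collecting duct cells, with log2 fold changes of -4.79 (SE 0.68) and -2.38 (SE 0.51) in isosmotic medium and -4.63 (SE 0.75) and -2.59 (SE 0.50) at 1 h. Gata2 passed the filter on low counts only through WT groups, and with 6 and 4 counts in all in the Nrf2-/- groups its ratios of WT to Nrf2-/- counts were 28.8 (95% exact counting interval 13 to 79.4) and 26.1 (9.94 to 97.5). Without Nrf2-/- replicate 1 or 2 of the condition, the Gata2 values were -9.53 or -3.78 in isosmotic medium and -8.85 or -3.68 at 1 h, the isosmotic Gata3 value was -4.26 or -1.57, and Gata3 at 1 h was -3.3 without replicate 2. All of these passed the test. The phosphodiesterase Pde4a fell by 3.70 (SE 0.27) and 2.34 (SE 0.26) in the same comparisons. Elf3, an epithelial factor, fell by 1.55 (SE 0.12) at 1 h. Its mean level was also lower in isosmotic medium, at 9.86 CPM in Nrf2-/- SFN against 26.0 CPM in WT SFN. Adcy5 was higher by 2.25 (SE 0.60) in isosmotic Nrf2-/- cells, with 37 and 46 counts against 4 and 19 in WT SFN isosmotic. It had both libraries over the filter on low counts in the first of these groups but not in the second. The call was thus fixed in part by that filter. It was lost without WT SFN isosmotic replicate 1 (1.69), and the value was 3.38 without replicate 2. The receptor that starts the pathway, Avpr2, had 0 to 10 counts and was not tested.

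The genes whose log2 CPM followed that of Aqp1 most closely over the 16 libraries, among 12290 genes with a mean of at least 50 counts, were St3gal6 (Pearson r = 0.9751), Ptpn22 (0.9724) and Kazn (0.9715). These values are a description, since the 16 points share groups and the genes were picked for the highest r. Ptpn22, for example, went from 3.18 CPM in WT DMSO isosmotic to 34.8 in WT DMSO 6 h, with 15.6 CPM in Nrf2-/- SFN isosmotic, and St3gal6 from 10.6 to 23.7, with 19.9 CPM.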

How the data were processed

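Raw counts per gene symbol were deposited by the authors, 1 file per library, without normalization. The study's methods name Hisat2, mm10, Samtools and FeatureCounts, and the submitters' processing notes list Bowtie2 in place of Hisat2. The annotation release, strand setting and treatment of shared reads are not given in the sources used here, so reads shared between paralogs may be split or lost. One label calls the cells primary, and all others mIMCD3.

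Counts were tested in edgeR 4.0.16 (R 4.3.3) with TMM normalization, filterByExpr and the robust quasi-likelihood F-test, with 1 coefficient per group over all 16 libraries. P-values were adjusted by Benjamini-Hochberg over all 19509 genes, with 0.05 as threshold. DESeq2 1.42.0 was an alternative. A single value of 2 against 2 libraries cannot reach a two-sided exact permutation p below 0.333. In 2 files, 5 lines without a gene name were left out. Positions came from GENCODE M21 (GRCm38), promoters from RefSeq (GRCm38.p6). The 8 genes were named throughout. Of the 46 pathway genes, up to 4 called with the largest change were named per comparison. The members and gene lists were chosen with earlier results of these data known. The script was tested on simulated counts.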

Additional observations from a re-analysis of the deposited data

How the results depend on the processing

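Each result was recomputed with DESeq2, with RLE size factors, without a filter on low counts, with at least 10 counts required in every library, with only the libraries compared, with only the 12 WT libraries, with the replicate number as a block and with each library left out in turn. Leaving out both Nrf2-/- SFN 1 h libraries and halving all counts were added after seeing the data. Aqp1 passed in every alternative that could be run at 6 h and for Nrf2-/- against WT.

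The number of aquaporins called at 1 h against isosmotic medium went from 0 to 1, by Aqp3, with DESeq2, without a filter and with counts halved in WT DMSO, WT SFN and Nrf2-/- cells. It also went to 1 with only the 12 WT libraries in WT DMSO and WT SFN, and with only the libraries compared or without the Nrf2-/- SFN 1 h libraries in WT DMSO. With 1 library left out it ran from 0 to 1 in each of the 3. With at least 10 counts in every library only Aqp1 and Aqp11 were tested, and the count was 1 in the 4 comparisons of 6 h and in both of Nrf2-/- against WT. Without a filter on low counts, the Aqp2 call at 6 h against 1 h with SFN was lost (edgeR adjusted p = 0.0503). With only the libraries compared, the number called was 1 for Nrf2-/- against WT at 1 h. With 1 library left out it ran from 1 to 2 for 6 h against 1 h with DMSO, 2 to 4 with SFN, 1 to 2 for Nrf2-/- against WT in isosmotic medium and 1 to 3 at 1 h.

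The direction changed in differences that did not pass the test. Aqp5 at 1 h against isosmotic medium with DMSO was 0.0223 with DESeq2, 0.0208 with RLE size factors, 0.00858 with only the libraries compared, 0.00617 with only the 12 WT libraries and -0.17 to 0.14 with 1 library left out. Aqp3 in Nrf2-/- against WT at 1 h was 0.0283 with DESeq2, 0.0287 with RLE size factors and -0.27 to 0.22 with 1 library left out. With 1 library left out, SFN against DMSO ran from -4.44 to 1.38 for Aqp3 in isosmotic medium. At 1 h it ran from -0.7 to 0.27 for Aqp1, -1.3 to 0.4 for Aqp5 and -0.37 to 0.27 for Aqp11, and at 6 h from -0.32 to 0.11 for Aqp1 and -0.54 to 0.23 for Aqp5. With SFN, 1 h against isosmotic medium ran from -0.72 to 0.25 for Aqp1 and -0.92 to 0.78 for Aqp5, and 6 h from -1.95 to 3.87 for Aqp3 and -0.0867 to 0.99 for Aqp11. Nrf2-/- against WT ran from -5.01 to 4.12 for Aqp3 and -0.23 to 0.59 for Aqp11 in isosmotic medium, and from -2.07 to 0.26 for Aqp11 at 1 h. In Nrf2-/- cells 1 h against isosmotic medium ran from -0.21 to 0.31 for Aqp1, -0.0547 to 1.06 for Aqp5 and -0.97 to 1.37 for Aqp11. The interaction of SFN and 1 h ran from -1.15 to 4.67 for Aqp3 and -0.91 to 0.79 for Aqp5, and that of SFN and 6 h from -3.29 to 2.53 for Aqp3, -0.15 to 0.62 for Aqp5 and -0.71 to 0.37 for Aqp11. That of genotype and 1 h ran from -0.21 to 0.76 for Aqp1, -4.13 to 5.0 for Aqp3, -0.27 to 1.42 for Aqp5 and -2.18 to 0.16 for Aqp11. The cause of these changes was not tested.

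Replicate numbers showed no general pairing of the samples. Over 28 pairs of groups the correlation of same-numbered libraries ran from -0.246 to 0.403, with a median of -0.0111, 3 over 0.1 and 6 under -0.1. This check cannot tell whether some groups were paired or prepared together. With the replicate number as a block the aquaporins called at 6 h were 2 and 3 against isosmotic medium and 2 and 4 against 1 h, with DMSO and SFN, as without it, and the block changed no call of the 8 genes. For Aqp7 the fall from 1 h to 6 h with SFN, -1.97 (adjusted p = 0.048), was -1.95 (adjusted p = 0.0602) with the block. That call was lost in 9 of 24 alternatives, also with RLE size factors (adjusted p = 0.0569) and without WT DMSO 1 h replicate 1 (0.0648) or 2 (0.0657), WT DMSO 6 h replicate 1 (0.0504), WT SFN 1 h replicate 1 (0.0629) or 2 (0.229) or WT SFN 6 h replicate 1 (0.195) or 2 (0.136). Aqp2 was not tested with counts halved, and the Nrf2-/- comparisons could not be run in the 12 WT libraries. Aqp2, Aqp3, Aqp4, Aqp6 and Aqp8 had 2 to 188 counts each over all 16 libraries.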
